A study of Mus musculus with 21 samples.

Results

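Joins between Sμ and the γ3 switch region, Sγ3, were read in stimulated CH12F3 cells, a mouse B lymphoma line. The members are all junctions whose prey lies on mm9 chromosome 12 between 114588000 and 114632499, a unit of 44500 bases around Sγ3, and there were 1042 of 40530 junctions, or 2.57%. The assay, CSR-HTGTS-seq, reads the join between a fixed DNA end, the bait, here at the 5′ end of Sμ, and the DNA it was joined to, the prey. Before DNA was taken, every culture received anti-CD40, IL4 and TGF-β over 72 h. In all 5 groups the stretch from Sμ to Sα is deleted on the non-productive IgH allele, so the joins come from the productive allele. The group NCdel (n = 6 libraries) carries no further change. In Iadel (n = 6) Iα is deleted as well, the element from which Sα is transcribed before switching. The group i3CBEc (n = 3) is NCdel with 3 inserted CTCF-binding elements (CBEs), in the orientation that the labels call convergent. Iadel-i3CBEc (n = 3) has the 3 CBEs downstream of Cγ2a in cells that also lack Iα, and in i3CBEc-3CBEdel (n = 3) the insertion is combined with deletion of the 3′CBEs, CTCF sites downstream of the constant genes. The labels do not say whether the libraries of a group came from separate cultures or clones, so p-values measure only the spread between these libraries.

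Class switch recombination exchanges the constant region of an antibody by joining broken Sμ to a broken downstream switch region, with the DNA between them deleted. Switch regions are long, repetitive and G-rich on the sense strand, and activation-induced cytidine deaminase (AID) attacks them at cytosines, most often within the palindrome AGCT. Sγ3 lies between the germline promoter Iγ3 and the exons of Cγ3 (Ighg3, gene ID 380795 in RefSeq), the constant gene of IgG3. CH12F3 cells are used as a model because this stimulation takes them mostly from IgM to IgA, that is, to Sα. A join that deletes the DNA between Sμ and Sγ3 puts the prey in one orientation, called deletional, and the opposite orientation is called inversional. The bases at the join are either shared by both ends (microhomology), absent (a direct join) or added (an insertion).

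The sequence in which the joins lay was read from the prey parts of the junction reads, since a genome of this build was not used. The Sγ3 block, mm9 chromosome 12 114599000-114603999, spans the bins of the unit in which enough prey bases were read and AGCT was frequent. Of its 5000 positions 3637 were read at least 3 times, and 99.7% of the bases read at them were the most frequent base. These positions held 98 AGCT motifs. The 250-base bin with the most joins of Iadel (176) and the fully read bin with the fewest (7) show the contrast. Both are on the minus strand, which is the sense strand of IgH, 5′ to 3′, with AGCT in capitals. The first is chr12:114602250-114602499 and the second chr12:114600500-114600749.
Busiest bin: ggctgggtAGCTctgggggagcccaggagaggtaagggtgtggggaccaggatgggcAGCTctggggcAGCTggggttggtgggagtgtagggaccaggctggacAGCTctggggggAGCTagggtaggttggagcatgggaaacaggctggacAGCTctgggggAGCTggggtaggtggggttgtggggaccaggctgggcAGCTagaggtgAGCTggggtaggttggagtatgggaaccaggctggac
Quietest bin: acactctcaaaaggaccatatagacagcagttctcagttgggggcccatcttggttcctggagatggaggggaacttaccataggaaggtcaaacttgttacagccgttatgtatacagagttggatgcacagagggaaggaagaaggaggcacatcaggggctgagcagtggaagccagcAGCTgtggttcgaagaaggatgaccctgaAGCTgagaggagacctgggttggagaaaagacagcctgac
The busiest bin held 9 AGCT motifs in repeats led by g runs, at 50 to 76 reads a position. The quietest bin held 2 motifs, at 3 to 7 reads a position.

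Single reads show what the join classes look like. Each starts with 25 bases of the bait and ends with 30 bases of Sγ3. The 4 reads are, among the Iadel joins of each class, those nearest the median position of γ3 joins, so their positions are close by selection. Capitals mark the first Sγ3 base in the direct join, the inserted bases in the join with an insertion, and the shared bases in the others.
Direct join, Iadel library 1, prey position 114602420: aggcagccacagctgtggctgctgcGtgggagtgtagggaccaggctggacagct
Microhomology of 2 bases, Iadel library 6, prey position 114602420: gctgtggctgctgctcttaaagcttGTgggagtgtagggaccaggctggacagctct
Insertion of 2 bases, Iadel library 5, prey position 114602379: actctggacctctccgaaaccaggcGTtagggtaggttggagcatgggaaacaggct
Inversional join with a microhomology of 2 bases, Iadel library 3, prey position 114602422: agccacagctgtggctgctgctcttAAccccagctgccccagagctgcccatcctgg
The direct join and the microhomology join enter the same repeat at the same base, from different ends of the bait. The inversional read carries the other strand, so its AGCT-containing repeats read as c runs.

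The libraries held 1180 to 3513 junctions. The read names gave 8 sequencing runs. Run 490 held NCdel libraries 1 to 3, Iadel libraries 4 to 6 and the Iadel-i3CBEc libraries, and no other run held more than 1 group. The deposited table of Iadel library 4 held 4614 reads, of which 3075 were also in library 5 or 6 and were removed, among them 325 of its 474 γ3 joins. Some joins were found in more than 1 library with the same prey position, orientation, bait end and inserted bases. In Iadel 38 of 940 distinct γ3 joins were so shared, 31 times in the 6 pairs of libraries of 1 run and 11 times in the 9 pairs of different runs. Whether these are chance repeats of frequent breaks or cells common to libraries was not tested. Computed again without them were the γ3 shares of Iadel against NCdel and the excess of Iadel joins in AGCT. So was the structure of Iadel γ3 joins, against γ3 joins and against Sα joins of NCdel. The other results were not computed without them.

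Joins to γ3 were rare in NCdel and frequent in Iadel. In NCdel they made up from 0.159% to 0.993% of a library's junctions (median 0.309%, 3 to 21 joins a library). In Iadel they made up from 4.89% to 11.0% (median 7.50%, 132 to 193 joins a library). Every Iadel library was above every NCdel library. The means were 0.451% ± 0.336 (SD, n = 6) and 7.67% ± 2.83 (SD, n = 6), a 17.0-fold rise. The two-sided exact permutation test gave p = 0.00216, the smallest possible here, and 0.00541 after Benjamini-Hochberg adjustment over 10 regions of the IgH window, of which 50% passed in this comparison. With libraries paired by replicate number (block), the adjusted exact p was 0.0781. Without joins found in more than 1 library the difference was 7.03 percentage points, against 7.22 with them, and the adjusted exact permutation p was again 0.00541. Counts in NCdel were small. In library 3, for example, 3 joins gave 0.159% with a 95% Wilson interval of 0.0541% to 0.467%. Intervals here cover counting error only, since no molecular identifiers were stated.

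**Figure D1:**
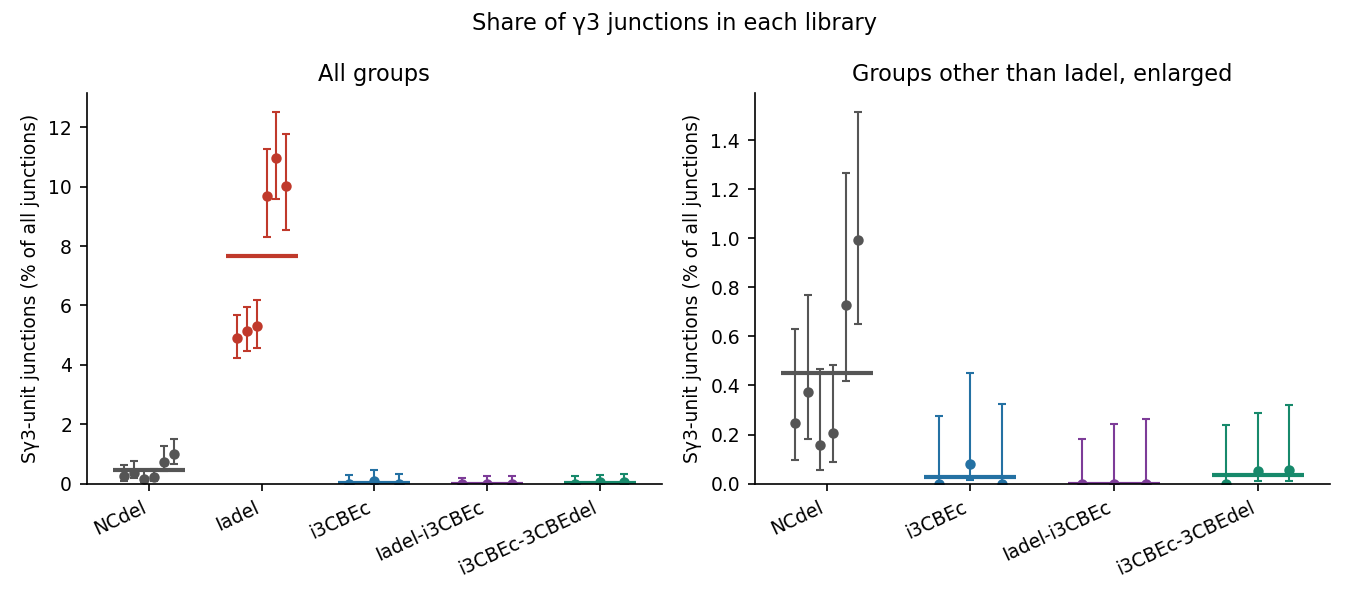
Share of γ3 junctions among all junctions of each library, in percent on linear axes, with 95% Wilson intervals and the group mean as a bar; the right panel leaves out Iadel. Iadel libraries lie between 4.89% and 11.0% and NCdel libraries between 0.159% and 0.993%.

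The level of γ3 joins in Iadel differed between sequencing runs. Libraries 1 to 3, all of run 482, had 5.12% ± 0.215 (SD, n = 3), and libraries 4 to 6, all of run 490, had 10.2% ± 0.663 (SD, n = 3). Within run 490 the NCdel libraries had 0.259% ± 0.107 (SD, n = 3), so the rise was 39.4-fold there, where an exact test of 3 against 3 cannot go below p = 0.1. The NCdel libraries outside run 490 had 0.207% in run 371 (1 library) and 0.861% ± 0.188 (SD, n = 2) in run 451. Among acceptor junctions, those in the 7 regions from γ3 to α, the Iadel runs differed by less than their spread. The γ3 share of acceptor junctions was 66.8% ± 2.64 (SD, n = 3) in run 482 and 68.2% ± 1.66 (SD, n = 3) in run 490. Per 100 junctions in the μ unit, γ3 joins numbered 46.3 ± 5.57 (SD, n = 3) and 37.5 ± 2.49 (SD, n = 3).

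Of the joins that left Sμ for an acceptor region, most went to γ3 in Iadel. The share was from 0.380% to 1.87% in the NCdel libraries (median 0.773%) and from 64.0% to 69.8% in the Iadel libraries (median 67.7%). The groups did not overlap, with means of 0.957% ± 0.565 (SD, n = 6) and 67.5% ± 2.12 (SD, n = 6). The adjusted two-sided exact permutation p was 0.00253 over 7 acceptor regions, of which 85.7% passed. The denominator fell at the same time. Acceptor joins numbered 683 to 1122 in an NCdel library and 189 to 283 in an Iadel library. Sα joins among them numbered 672 to 1090 and 0 to 11. The share therefore reflects fewer acceptor joins as well as more γ3 joins. The number of γ3 joins per γ2b join was from 2.92 to 4.82 in Iadel (mean 3.81 ± 0.665, SD, n = 6) and from 0.6 to 6 in NCdel (mean 2.99 ± 1.96, SD, n = 6). The NCdel ratios rest on 2 to 5 γ2b joins a library, and the ranges overlap.

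The 3 CBEs were accompanied by a near absence of γ3 joins. No γ3 join was found among the 2129, 1576 and 1447 junctions of the Iadel-i3CBEc libraries, which allows shares of up to 0.141%, 0.190% and 0.207%. All lie below the lowest Iadel library. Against the 3-count limit over the group, 0.0582% of 5152 junctions, the mean of Iadel was at least 132-fold higher. The bound was 77.3-fold without Iadel-i3CBEc library 1, which holds 2129 of these junctions. The exact permutation test of 3 against 6 libraries gave p = 0.0119, the smallest possible, and 0.0238 adjusted over 10 regions, of which 60% passed. Leaving out 1 Iadel-i3CBEc library, or Iadel library 2 or 3, ended the call, with adjusted exact permutation p from 0.0510 to 0.0714. With Iadel-i3CBEc paired by number to Iadel libraries 1 to 3, of another run, the adjusted exact sign-flip permutation p was 0.278. A sign flip of 3 pairs cannot reach the threshold, so the paired test could not have passed. Within run 490 the Iadel libraries had 10.2% and the Iadel-i3CBEc libraries had 0 joins.

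In the 2 groups with Iα present the insertion was compared with an already low level. Neither group shared a sequencing run with NCdel, so genotype and run cannot be told apart in the comparisons with NCdel. The i3CBEc libraries had 0, 1 and 0 γ3 joins of 1391, 1257 and 1180 junctions. The i3CBEc-3CBEdel libraries had 0, 1 and 1 of 1591, 1978 and 1773. The measured share of every library in both groups was below that of every NCdel library. The libraries without a join allow up to 0.216% and 0.254% in i3CBEc and 0.189% in i3CBEc-3CBEdel, which is above the 0.159% of NCdel library 3. The pooled share, 1 of 3828 and 2 of 5342 junctions against 52 of 11564, was 0.0581 times that of NCdel for i3CBEc (exact 95% interval 0.00144 to 0.338) and 0.0833 times for i3CBEc-3CBEdel (0.00982 to 0.316). These intervals treat junctions as independent and leave out the spread between libraries, which was 0.159% to 0.993% in NCdel. The test over libraries does not leave it out. The adjusted exact permutation p was 0.143 for i3CBEc and 0.119 for i3CBEc-3CBEdel, so neither passed, while 30% of the 10 regions passed in each comparison. Between i3CBEc-3CBEdel and i3CBEc, and between Iadel-i3CBEc and i3CBEc, the exact test of 3 against 3 gave p = 1, and 0% of regions passed. Exact tests of 3 against 3 libraries cannot go below p = 0.1, so these comparisons could not have passed.

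The 3 joins of the insertion groups did not lie in the Sγ3 block. In i3CBEc library 2 the join was at 114607161, 3162 bases from the block on its Sμ side, with a microhomology of 2 bases. In i3CBEc-3CBEdel library 2 it was at 114606094, 2095 bases from the block on the same side, with a microhomology of 4 bases. In i3CBEc-3CBEdel library 3 it was at 114589212, 9788 bases beyond the other side, with an insertion of 25 bases. All were deletional. Positions in these libraries are after subtraction of 99 bases, as the insertion shifts the deposited coordinates. For the block itself the counts were therefore 0 in all 9 libraries with the insertion, against 51 joins in NCdel. This makes the NCdel mean at least 5.62-fold higher than i3CBEc and at least 7.85-fold higher than i3CBEc-3CBEdel. The bounds fell to 3.58-fold without i3CBEc library 1 and 4.94-fold without i3CBEc-3CBEdel library 2. They leave out the spread between libraries and runs. The exact permutation test of the block share over libraries did not pass, with an adjusted p of 0.119 for each group against NCdel.

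Within the unit, joins of the groups without the insertion lay almost wholly in the Sγ3 block. The block was placed from the prey reads of these same joins, where enough bases were read. This share is therefore a description and not a test. The block held 977 of 987 joins in Iadel and 51 of 52 in NCdel. Of the 10 Iadel joins outside, 7 were below the block, up to 5679 bases away, and 3 above, up to 530 bases away, and 8 lay within 1000 bases of its edges. The NCdel exception, in library 1, was 25262 bases above the block, towards Sμ.

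Inside the block the joins gathered on its Sμ side, the side where germline transcription enters. Counted from the side away from Sμ, the 1-kb bins held 10, 29, 248, 518 and 172 joins in Iadel and 0, 0, 12, 31 and 8 in NCdel. The fourth bin held 53.1% ± 3.93 of a library's block joins in Iadel (SD, n = 6), from 46.4% to 57.4%. The 3 bins nearest Sμ held 938 of 977 Iadel joins and 51 of 51 NCdel joins. These 3 bins were read in full, with 94 AGCT motifs over 3000 positions and a sense strand of 42.6% G and 15.6% C. The middle position of the joins was reproducible. The library medians in Iadel were from 114602373.5 to 114602486, with an SD of 41.5 bases over 6 libraries, about 1575 bases from the Sμ edge of the block for the pooled joins. The interquartile width was from 895 to 1106 bases in Iadel, a mean of 995 ± 90.4 (SD, n = 6). It was 464.5, 237, 1008 and 594 bases in the 4 NCdel libraries with at least 5 joins. Here the groups overlap, and the exact permutation p was 0.0238, or 0.107 adjusted over 9 measures of join structure. The NCdel widths rest on 5 to 21 joins. Without shared joins the difference was 486 bases and passed (adjusted exact permutation p = 0.0214), and with a minimum of 3 joins it turned to −718 bases.

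**Figure D2:**
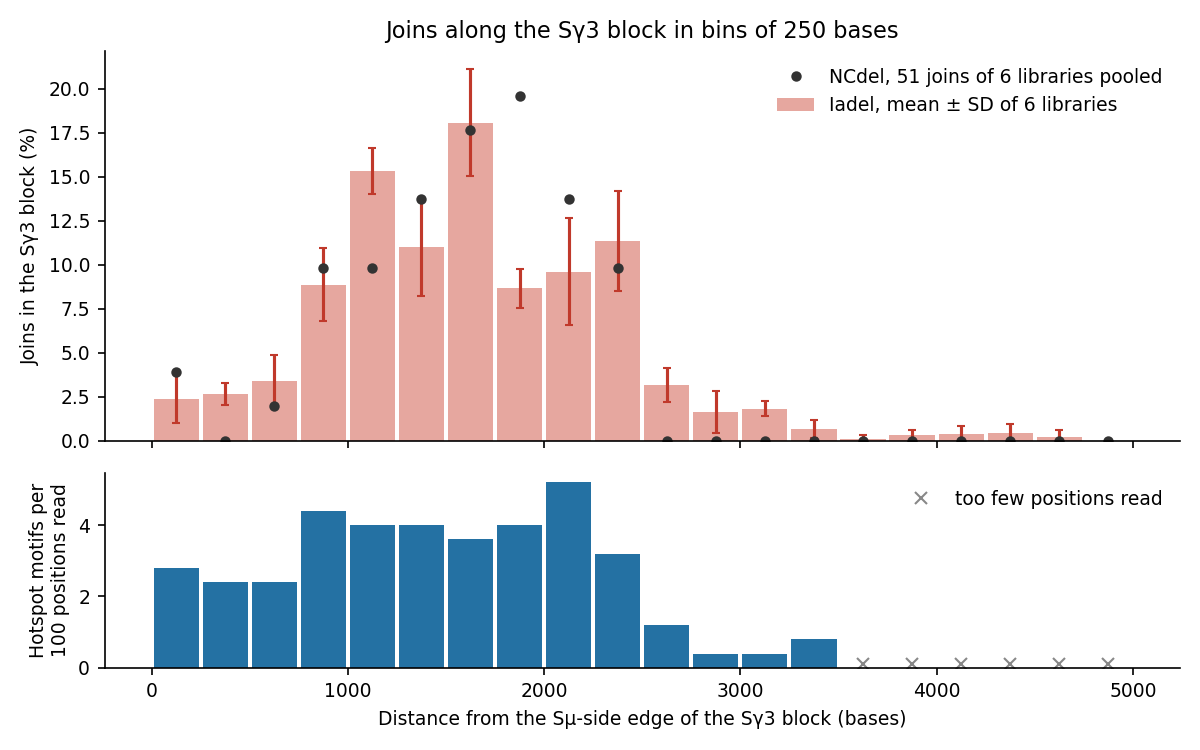
Joins along the Sγ3 block in 250-base bins, as percent of block joins (upper; bars, mean ± SD of 6 Iadel libraries; points, the 51 NCdel joins pooled) and AGCT motifs per 100 positions read (lower; crosses, fewer than 50 positions read), against distance from the Sμ edge of the block in bases. Bins with 3.20 or more motifs per 100 positions hold most joins.

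The bins with many joins were those with many AGCT motifs. Over the 14 bins of 250 bases with at least 50 positions read, Pearson's r between Iadel joins and motifs per 100 positions was 0.746 and Spearman's rho 0.761. This is a description over neighbouring bins of 1 region, read by the same reads. The relation was loose among motif-rich bins. The bin with the most motifs, 13 or 5.20 per 100 positions, held 94 joins, and the busiest bin, with 9 motifs, held 176.

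At single-base scale, joins lay in AGCT more often than the positions read. In the 6 Iadel libraries 21.4%, 26.6%, 24.7%, 22.8%, 28.5% and 21.4% of block joins had their first Sγ3 base within an AGCT, against 10.8% of positions. All 6 libraries were above that share, by 13.4 percentage points ± 2.89 (SD, n = 6), a ratio of 2.25. The two-sided exact sign-flip permutation test gave p = 0.0312, the smallest that 6 libraries allow. With the comparison made inside the 250-base bin of each join, the expected share was 14.4% and the difference 9.80 points ± 2.78 (SD, n = 6), again higher in 6 of 6 libraries, exact permutation p = 0.0312. Of the 98 motifs 81 held at least 1 Iadel join, and the most joins at 1 motif was 9. In direct joins alone the excess was 10.8 points, and the exact permutation p was 0.0625 over the 6 libraries, which misses the threshold.

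Most of this excess lay at 1 base of the motif. On the sense strand, 133 of 915 deletional Iadel joins began at the T of AGCT, that is, the retained Sγ3 sequence started directly after the C. By library the share was from 11.7% to 16.7% (median 15.0%), against 2.69% of positions, a ratio of 5.34 for the mean of 14.4% ± 2.09 (SD, n = 6). The A, G and C of the motif held 32, 39 and 25 joins. In direct joins, where no base can belong to both ends, 40 of 201 began at the T, or 19.9%, and 2, 2 and 3 began at the A, G and C. Of the 54 inversional joins, read on the other strand, 3 were at the same base, a ratio of 2.06 to the positions read. More, 7, were at the base just before the A, a ratio of 4.81. Both ratios rest on few joins. The deletional peak at the T was not particular to Iadel. In NCdel 8 of 41 deletional γ3 joins began at the T. At Sα in NCdel the share was 10.8% ± 1.35 (SD, n = 6) of deletional joins against 2.19% of positions, a ratio of 4.95, and at Sγ2b in Iadel it was 9.14% ± 3.58 (SD, n = 6) against 2.93%, a ratio of 3.12. The T and the base before the A were singled out after the offsets were seen, and the ratios are given without a test.

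**Figure D3:**
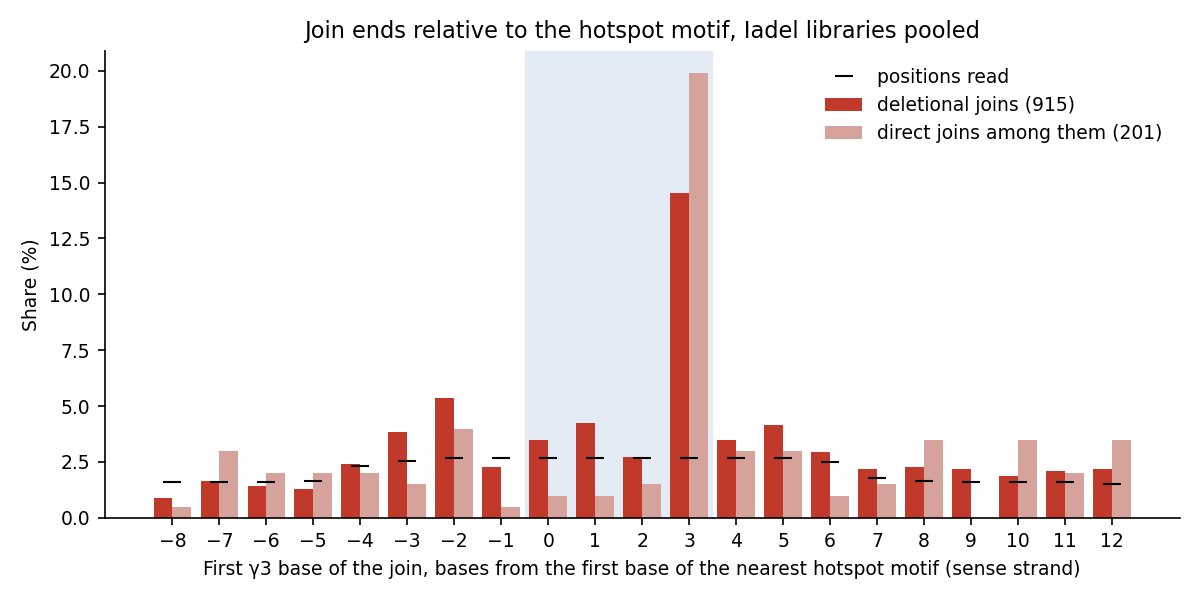
Share of Iadel deletional joins in the block, in percent, by the distance in bases of the first Sγ3 base from the A of the nearest AGCT on the sense strand (dark bars, 915 joins; light bars, the 201 direct joins; ticks, positions read; shaded, the motif). The peak at 3, the T of the motif, holds 14.5% of the joins and 19.9% of the direct joins.

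No single position dominated. The 1042 joins fell on 767 positions, of which 590 held 1 join and 12 held 5 or more. The most used position, 114602488, held 7 joins from 6 libraries with 6 different bait ends, or 0.672% of all γ3 joins. The next 4, 114601581, 114601717, 114602151 and 114602955, held 6 each, from 4 or 5 libraries, and all of these joins were from Iadel. All but 114601581 lie in an AGCT. The first read by name at each position is given, with 30 bases of Sγ3 after the join and capitals as above. Where the join is at the T of AGCT, the Sγ3 part begins with that base. The rest of the motif lies before the join and is known from the other prey reads.
Position 114602488, insertion of 1 base: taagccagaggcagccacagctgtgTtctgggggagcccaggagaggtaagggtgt
Position 114601581, microhomology of 4 bases: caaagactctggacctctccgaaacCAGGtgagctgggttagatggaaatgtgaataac
Position 114601717, microhomology of 1 base: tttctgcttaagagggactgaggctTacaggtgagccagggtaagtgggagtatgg
Position 114602151, insertion of 3 bases: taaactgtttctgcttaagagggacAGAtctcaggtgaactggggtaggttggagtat
Position 114602955, microhomology of 1 base: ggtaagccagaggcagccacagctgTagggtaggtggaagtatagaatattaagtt
The bait ends lay between 114664780 and 114664879. The bait base most used in Iadel γ3 joins, 114664846, held 54 of 987 joins, or 5.47%. It was also the most used in Sα joins of NCdel, with 277 of 4953, or 5.59%.

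Most γ3 joins were deletional. In Iadel 933 of 987 were, and the deletional share was from 91.7% to 96.9% by library (median 95.4%). In NCdel 42 of 52 were. The NCdel libraries 1 to 6 had 0 of 4, 2 of 7, 0 of 3, 1 of 5, 5 of 12 and 2 of 21 inversional joins. Over the libraries with at least 5 joins, the deletional share was 75.1% ± 13.6 (SD, n = 4) in NCdel and 94.5% ± 2.11 (SD, n = 6) in Iadel, and these libraries did not overlap. The exact permutation test gave p = 0.00476, or 0.0429 adjusted over 9 measures, the only one of the 9 that passed. The NCdel values rest on 5 to 21 joins a library. With a minimum of 3 joins, NCdel libraries 1 and 3, at 100% deletional, enter, and the adjusted exact p is 1. Leaving out any 1 of the 10 libraries brought the adjusted exact p to between 0.0536 and 0.107, a loss that the design fixes to a large part, since 1 measure alone cannot go below 0.0714 with 4 against 5 libraries or 0.107 with 3 against 6. The difference was 13.9 to 24.6 percentage points without 1 library, against 19.4 with all. Paired by number (block), the difference was 20.7 points and the adjusted exact sign-flip permutation p was 0.750. A sign flip of 4 pairs cannot reach the threshold, so this test could not have passed. Pooled, inversional joins were 19.2% in NCdel (95% Wilson interval 10.8% to 31.9%) and 5.47% in Iadel (4.22% to 7.07%). These intervals leave out the spread between libraries, and 5 of the 10 NCdel inversional joins were from library 5.

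As shares of all junctions, both orientations rose in Iadel. Deletional γ3 joins went from 0.360% ± 0.281 to 7.29% ± 2.80 (SD, n = 6 each), a 20.2-fold rise. Inversional joins went from 0.0909% ± 0.113 to 0.385% ± 0.0877 (SD, n = 6 each), a 4.23-fold rise, which was 7.94-fold without NCdel library 5. For inversional joins the adjusted exact permutation p was 0.0216 over 10 regions, and the ranges overlap, since NCdel library 5 had 0.303% and Iadel library 2 had 0.228%. Within Iadel the deletional share of γ3 joins was below that of γ2b joins (97.5% ± 2.97, SD, n = 6) in 5 of 6 libraries. The adjusted exact sign-flip permutation p was 0.375. It was also below that of Sα joins in NCdel (97.4% ± 0.837, SD, n = 6), with an adjusted exact permutation p of 0.0519. That comparison passed without repeated junctions, within the blocks, without shared joins and without Iadel library 2, 4 or 5, with adjusted exact permutation p of 0.0130 to 0.0455. In the other alternatives, among them each NCdel library left out, it was 0.0519 to 0.0866. Genotype and acceptor differ together in this comparison.

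**Figure D4:**
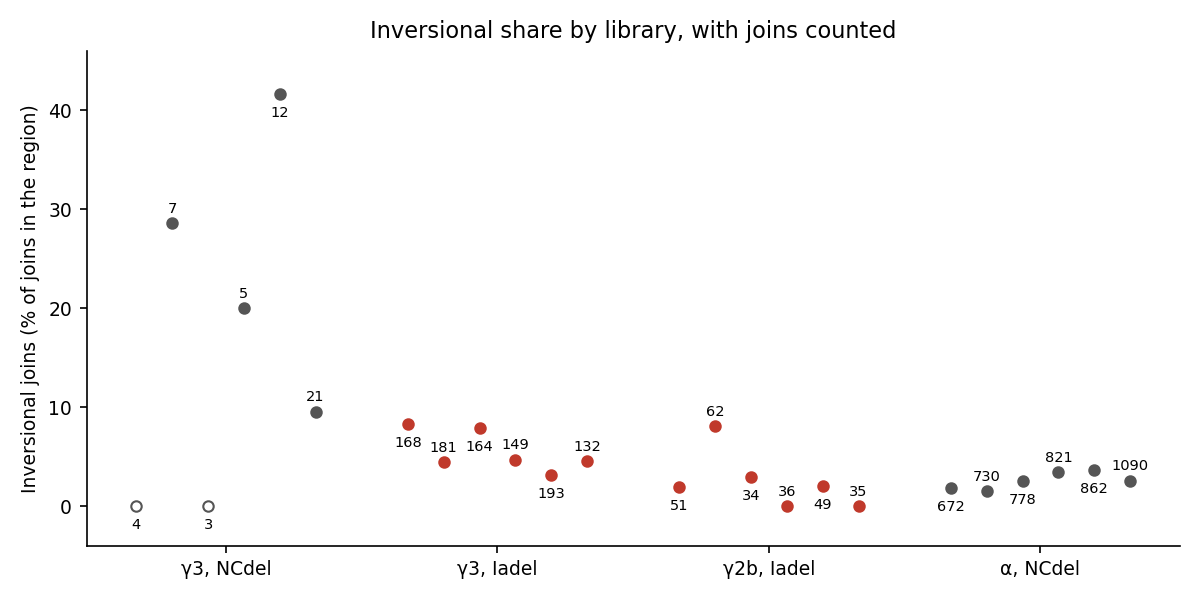
Inversional joins as percent of the joins of a region, 1 point per library, labelled with the number of joins; open points have fewer than 5. For γ3, NCdel libraries with at least 5 joins lie at 9.52% to 41.7% and Iadel libraries at 3.11% to 8.33%.

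Most γ3 joins had microhomology, as did those of the other frequent acceptors. In Iadel, 565 of the 987 γ3 joins had microhomology, 220 were direct and 202 had an insertion. By library the microhomology share was from 54.7% to 61.4%, with a mean of 57.4% ± 2.32 (SD, n = 6). It was 56.1% ± 8.45 (SD, n = 6) for γ2b in the same libraries and 57.0% ± 2.01 (SD, n = 6) for Sα in NCdel. The differences, 1.31 and 0.386 percentage points, were within the spread between libraries, with adjusted exact permutation p of 0.812 and 0.866. Without joins found in more than 1 library the difference from Sα was 5.55 points and passed, with an adjusted exact permutation p of 0.00866. That removal took 38 of 940 distinct γ3 joins in Iadel and 413 of 4459 distinct Sα joins in NCdel. Direct joins were 22.3% ± 1.84 and insertions 20.3% ± 3.53 of γ3 joins (SD, n = 6). Among joins without an insertion the mean microhomology was 1.66 bases ± 0.0519 (SD, n = 6), against 1.73 ± 0.0776 (SD, n = 6) for Sα in NCdel, adjusted exact permutation p = 0.299. Without the shared joins this difference turned, with γ3 higher by 0.168 bases and an adjusted exact permutation p of 0.00866.

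The microhomologies were short. In Iadel 225 γ3 joins shared 1 base, 140 shared 2, 99 shared 3, 54 shared 4 and 47 shared 5 or more, and the longest shared 10, which is the longest in the series. Insertions had a median of 2 bases and a maximum of 30, again the maximum over all junctions, and 19 were of 13 bases or more. Of the 249 bases in insertions of up to 3 bases, 38.6% were T, 32.1% A, 16.5% C and 12.9% G, read on the strand that runs from bait to prey. In NCdel the γ3 microhomology share was 57.1%, 40.0%, 58.3% and 66.7% in the libraries with at least 5 joins, a mean of 55.5% ± 11.2 (SD, n = 4). It differed from that of Iadel by less than this spread, with an adjusted exact permutation p of 0.962.

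**Figure D5:**
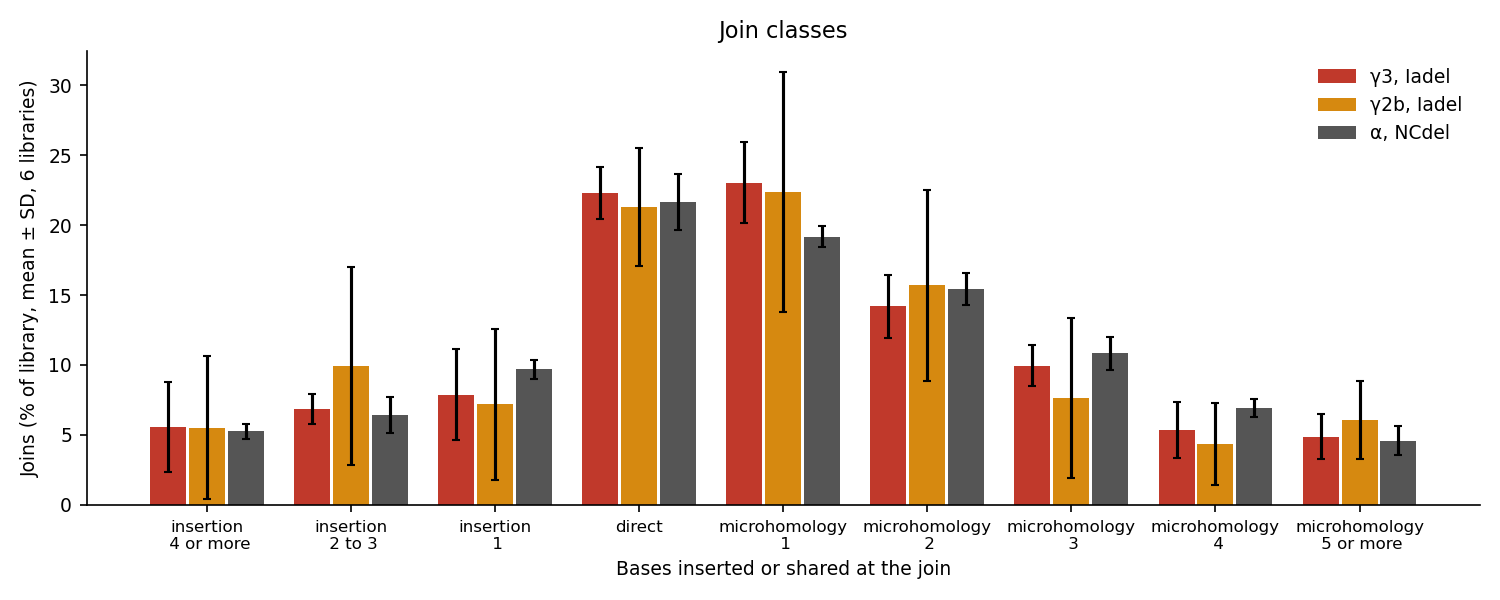
Join classes as percent of a library's joins (bars, mean of 6 libraries; error bars, SD) for γ3 in Iadel, γ2b in Iadel and Sα in NCdel, ordered from insertions through direct joins to microhomologies of increasing length in bases. Direct joins are 22.3%, 21.3% and 21.6%, and the bars of γ3 and Sα differ by at most 4 percentage points in every class.

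The width over which γ3 joins were spread was compared with that of Sα and γ2b joins. The interquartile width in Iadel, 995 bases ± 90.4, was below that of Sα joins in NCdel, 1132 ± 44.1 (SD, n = 6 each), and the adjusted p of the exact permutation test was 0.0519. The difference passed without repeated junctions (exact permutation p = 0.0260), within the blocks (0.0455), without shared joins (0.0115) and without Iadel library 2 or 4 (0.0260 each), all adjusted. In the other alternatives the adjusted exact permutation p was 0.0519 to 0.104. Genotype and acceptor differ together here as well. The width was 2141 bases ± 792 (SD, n = 6) for γ2b in Iadel, wider than γ3 in 5 of 6 libraries, and the adjusted exact sign-flip permutation p was 0.375. Sγ3 was placed by motif density over 5000 bases, against 6000 for Sγ2b and 7000 for Sα.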

How the data were processed

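Junctions were measured in 21 libraries. Per the labels, libraries were made by CSR-HTGTS-seq, and per the submitters' processing notes mm9 and Bowtie2 were used. The deposited tables hold no counts or levels but other values (mm9 positions, read coordinates and microhomology, 1 line per junction), without normalisation by the authors. Filter settings, molecular identifiers and a mapping quality per read are not given in the sources used here. In the deposited tables of the insertion groups, positions on chromosome 12 at or above 114526902 were lowered by 99 bases, and reads of Iadel library 4 also in 5 or 6 were dropped.

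Switch blocks are 1-kb bins of the IgH window in which 1000 or more prey bases were read, with 1 or more AGCT per 100 of them, merged within 3 kb, and 7 were named by gene order. Microhomology is the overlap of bait and prey on the read. Sγ3 bases are the most frequent of at least 3 prey reads. Measures of join structure use libraries with at least 5 joins. Tests are two-sided exact permutations of means, or sign flips within libraries, with Benjamini-Hochberg adjustment and a threshold of 0.05. A count of 0 allows 3 counts of the total. The members, lists and tests were chosen with earlier results of these data known. The positions shown are the 5 with the most joins, and the reads of the join classes are those of each class nearest the median γ3 position. Scripts (Python 3.11.15, pandas 2.3.3, NumPy 2.4.6, SciPy 1.17.1) were tested on simulated data. Alternatives covered the denominator, orientation, repeats, shared joins, the shift, minimum counts, the run, pairing and each library left out.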

Additional observations from a re-analysis of the deposited data

Results flagged for a closer look

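In 25 groups of 4 to 6 library values, 3 had a library farther from the rest than Dixon's 95% limit, and chance gives about 1 in 20 groups. NCdel library 5 had inversional γ3 joins at 0.303% of all junctions, against 0 to 0.106% in the other 5 NCdel libraries, from 5 joins. NCdel library 4 had 60.0% direct joins among its 5 γ3 joins, against 9.52% to 16.7% in the other 3 NCdel libraries with at least 5 joins. The same library had an insertion in 0% of its γ3 joins, against 23.8% to 28.6%.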

How the results depend on the processing

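The rise of γ3 joins in Iadel kept its direction in all alternatives run, with differences of 0.294 (inversional joins alone) to 39.4 (per 100 μ junctions) and 6.57 to 7.78 percentage points when 1 library was left out. It missed the threshold within run 490 (9.97, 3 libraries against 3) and with replicate block (7.22). As a share of acceptor junctions the difference was 67.5 within run 490, without a call, and the replicate block changed no call (66.5). For Iadel-i3CBEc against Iadel the differences were −10.2 within run 490, −5.12 with replicate block and −8.23 to −7.02 when 1 library was left out. For i3CBEc against NCdel the block gave −0.233. The replicate numbers do not pair the libraries: same-numbered libraries of NCdel and Iadel correlated over 10 regions at −0.0443 to 0.818, with 4 of 6 above 0.1, 2 of 6 correlating best with their own number. With 1 library left out, i3CBEc-3CBEdel minus i3CBEc ranged from −0.00412 to 0.0357 points, so its sign changed.

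Of 9 measures of join structure between Iadel and NCdel, 1 passed. With deletional joins alone 0 passed, but the deletional share, the measure that had passed, drops out there by construction. With minimum counts of 3 or 10, with the block and with any library left out (0 to 0) 0 passed. Without joins found in more than 1 library 2 passed, the second being interquartile width. The difference in deletional share was 11.1 points with at least 3 joins, 20.1 with at least 10, 20.7 with the block and 13.9 to 24.6 with 1 library left out. With 1 library left out 1 measure alone cannot pass after adjustment, and with the block no measure can. With at least 10 joins only NCdel libraries 5 and 6 remain, and there too 1 measure alone cannot pass. Otherwise the cause was not tested. With at least 3 joins the difference in interquartile width was −718 bases, where NCdel library 1, with 4 joins, enters at 7252 bases. The microhomology share reversed at −5.11 points with at least 10 joins and −3.32 without NCdel library 4, the lowest of −3.32 to 5.57 with 1 library left out. The mean microhomology reversed at −0.00126 bases (deletional), −0.101 (at least 3), −0.533 (at least 10), −0.0670 and −0.267 (without NCdel library 2 or 4), and reached 0.244 without library 5. Against γ2b the microhomology difference was −1.06 and −0.418 without Iadel library 5 or 6 and up to 4.10 without library 1, with 0 of 8 measures passing. Against Sα, 0 of 8 measures passed. The number was 2 without repeated junctions, 2 within the blocks, 4 without shared joins and 0 to 2 with 1 library left out, the deletional share and interquartile width being those that passed in the first 2. Without shared joins, which removed 413 distinct Sα joins, the mean microhomology reversed to 0.168 bases and the microhomology share differed by 5.55 points. That share reversed at −0.331 without NCdel library 1 and −0.409 without Iadel library 6, and reached 0.925 without library 2. The AGCT excess was 10.8 points in direct joins, where it missed the threshold with all 6 libraries, and 12.6 to 14.0 with 1 library left out, where 5 libraries cannot reach it.

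Mapping quality was not run, since the deposited tables hold no such value. Joins shared by libraries, inversional joins, local AGCT shares and the run within acceptor shares were chosen after seeing the data. Depth limits γ3 in NCdel, at 3 to 21 joins a library, and in the insertion groups.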
